A study of Mus musculus with 12 samples.

Results

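The solute carrier genes examined here are 201 mouse genes whose symbols follow the pattern Slc, a family number, the letter a and a member number. They were the genes with at least 1 probe set annotated to that single symbol, taken with 1 probe set per gene, the one with the highest mean signal, and kept where that probe set lay above the array median on 2 or more of the 12 arrays. A total of 300 genes matched the pattern after 9 well known carriers of glucose, lactate, arginine, cystine, iron, zinc and manganese had been set aside by name. The other 99 were not kept, and 32 of those were above the median on 1 array, while 17 of the 201 stood just inside the limit with 2 arrays. The 201 genes are part of 12914 genes, and 27931 probe sets, that were tested in the whole series. Symbols of other subfamily letters, such as the b to f members of family 35, are not in the set.

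RNA was measured on 12 Affymetrix arrays of bone marrow macrophages, which are macrophages grown from bone marrow in serum and L-929 conditioned medium, the usual source of their growth factor. The donor mice carried kinase-dead IRAK4 (KD) or were wild type (WT), and IRAK4 is the kinase that relays Toll-like receptor signals from the adaptor MyD88. Each strain had 3 groups of 2 biological replicates: cells kept for 4 h without stimulation, cells given lipopolysaccharide (LPS) at 1 µg/ml for 1 h, and cells given the same dose for 4 h. LPS is the part of the bacterial outer membrane that Toll-like receptor 4 recognises. Since the unstimulated cells were kept for 4 h, LPS and time in culture differ together in the 1 h comparisons. The labels do not say whether replicates came from separate animals, so the p-values reflect differences among arrays within groups. Irak4 itself had 0 annotated probe sets, so the strains were not checked through the targeted gene.

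Solute carriers are membrane proteins that move small molecules across the plasma membrane or into and out of organelles, by facilitated diffusion or by coupling one solute to the gradient of another. Members of a family usually share their fold and often their class of substrate: amino acids, sugars, metal ions, inorganic anions, nucleosides, vitamins or, in family 25, the metabolites exchanged across the inner mitochondrial membrane. In macrophages they are known for feeding the metabolic change that follows bacterial stimuli, for withholding or delivering trace metals at the phagosome, and for exporting the products of digestion from the lysosome.

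Signals are MAS5 intensities, a linear scale on which probe sets of different genes cannot be ranked against each other. The mean signal, trimmed by 2% at each end, was 150 on every array, and the rank correlation between the replicates of a group lay between 0.879 and 0.913. Array medians were 24.2 to 26.9 in KD cells and 18.9 to 22 in WT cells. The log2 ratio of 3′ to 5′ signal of the control transcripts was highest on the array of KD unstimulated replicate 1, at 1.35 for Gapdh and 3.04 for Actb, against 0.807 to 1.17 and 2.22 to 2.85 on the other arrays. All 8 macrophage markers looked at were above the filter, and their summed signal was 20151 to 25917 in KD cells and 17847 to 22809 in WT cells. In bulk RNA, fewer cells of a type and less RNA per cell cannot be told apart.

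LPS changed a minority of the carriers, and more of them at 4 h than at 1 h. Changes below are differences of log2(signal + 4.4) with the standard error of the fit, and a gene was called changed at a limma p under 0.05 after Benjamini-Hochberg adjustment over all 27931 probe sets. In KD cells at 1 h, 3 carriers were higher and 9 lower, which is 5.97% of the 201, against 5.47% of all probe sets called, 3.17% higher and 2.29% lower. At 4 h, 15 were higher and 15 lower in KD cells, or 14.9%, against 10% of all probe sets, 5.3% higher and 4.7% lower. In WT cells 6 were higher and 8 lower at 1 h, which is 6.97% against 6.12% of all probe sets, 2.89% higher and 3.23% lower. At 4 h in WT cells 19 were higher and 33 lower, or 25.9%, against 17.1% of all probe sets, 6.95% higher and 10.2% lower. The share of the carriers called was thus near the background at 1 h. These shares, here and below, compare unlike sets. Each carrier stands for the probe set of highest mean signal, while all probe sets include weaker sets of the same genes. With a stricter filter, at the 75th percentile of the arrays, 49 of 99 carriers were called in WT cells at 4 h, against 52 of the 201. The part of signal strength in these shares was not tested. The median change at 4 h was -0.045 over the carriers and -0.046 over all probe sets in KD cells, and -0.19 against -0.12 in WT cells.

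The counts changed when single arrays were left out. At a given spread, leaving out 1 array of a compared group raises the standard error. A call can therefore be lost while its change keeps its size. The 12 calls in KD cells at 1 h became 6 without KD LPS 1 h replicate 1 and 5 without KD unstimulated replicate 1, the array with the highest 3′ to 5′ ratios. The 30 calls in KD cells at 4 h became 15 without KD LPS 4 h replicate 1 and 18 without KD unstimulated replicate 2. The 14 calls in WT cells at 1 h became 6 without WT LPS 1 h replicate 2, 5 without WT unstimulated replicate 1 and 8 without WT unstimulated replicate 2. The 52 calls in WT cells at 4 h became 33 without WT unstimulated replicate 2. With a variance prior that has no trend in mean signal, the calls numbered 6 at 1 h and 13 at 4 h in KD cells and 1 at 1 h in WT cells. Calls that held with each of the 12 arrays left out in turn numbered 4 of 12 and 12 of 30 in KD cells at 1 h and 4 h, and 2 of 14 and 25 of 52 in WT cells. Markers of stromal cells, such as Col1a1 and Pdgfrb, moved with the KD comparisons: 5 of 9 tested were called higher at 1 h and 5 of 9 at 4 h, and the summed signal of the 10 on the array was 4091 to 5056 at 1 h and 4327 to 4650 at 4 h, against 2448 to 2849 in unstimulated KD cells. In WT cells 2 of the 9 were called lower at 4 h, with sums of 3661 to 4094 against 4734 to 4933 without LPS. Of 8 macrophage markers at 4 h, 0 were called higher and 3 lower in KD cells, and 1 higher and 1 lower in WT cells. The part of these marker lists in the changes of the carriers was not tested.

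The choice of probe set mattered for many calls. Of the 127 calls over all comparisons, 70 concern a gene with another tested probe set, 121 probe sets in all, each with a lower mean signal than the one taken, as the rule sets. Of the 121, 92 had the same sign, 20 of these were themselves called, and 29 had the opposite sign, of which limma called 0. The opposite signs concern 18 genes: Slc1a4, Slc4a4, Slc5a2, Slc5a3, Slc6a9, Slc7a4, Slc12a2, Slc16a10, Slc20a1, Slc25a39, Slc25a51, Slc30a1, Slc31a2, Slc35a5, Slc38a2, Slc38a9, Slc39a10 and Slc44a1, each in at least 1 comparison. For Slc44a1 at 4 h, a set with a mean signal of 45.9 gave -0.20 in KD and -0.37 in WT cells. A further Slc44a1 set, with a mean signal of 24.7, gave 0.47 in KD and 0.13 in WT cells. Another set of Slc4a4 gave -0.53 at 1 h in KD cells, that of Slc5a2 -0.46 at 1 h in KD cells and that of Slc6a9 -0.31 at 4 h in KD cells. Between the unstimulated strains, a set of Slc35a5 with a mean signal of 76.3 gave 0.56. The Slc35a5 sets with mean signals of 537 and 32.25 gave -0.54 and -0.026.

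In all, 66 of the 201 carriers were called in at least 1 of the 4 LPS comparisons and 135 in none. The 66 are 32.8% of the carriers, against 24.5% of all probe sets, which include weaker sets than those taken for the carriers. Transport classes were set by family number alone, so a class can hold genes with other substrates. The myo-inositol carrier Slc5a3 thus counts with the sugar carriers, and the aromatic amino acid carrier Slc16a10 with the carboxylate carriers. By transport class, the calls at 4 h were spread over every class in WT cells. The counts by class stand beside 5.3% higher and 4.7% lower over all probe sets in KD cells, and 6.95% higher and 10.2% lower in WT cells, at 4 h, and the classes are too small for a share to be read closely. Carriers of amino acids and peptides gave 6 higher and 3 lower calls among 38 genes in KD cells, and 7 higher and 6 lower in WT cells. Of 16 carriers of sugars and sugar phosphates, 1 was higher and 3 were lower in KD cells, and 1 was higher and 6 were lower in WT cells. Of 25 carriers of trace metals and magnesium, 3 were higher and 1 was lower in KD cells, and 4 were higher and 3 lower in WT cells. The 40 mitochondrial carriers gave 1 higher and 3 lower calls in KD cells and 2 higher and 6 lower calls in WT cells. At 1 h the amino acid and peptide class had 0 higher and 5 lower calls in KD cells, and 2 higher and 3 lower in WT cells. The plot of calls by class shows the same counts as shares of each class.

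**Figure D1:**
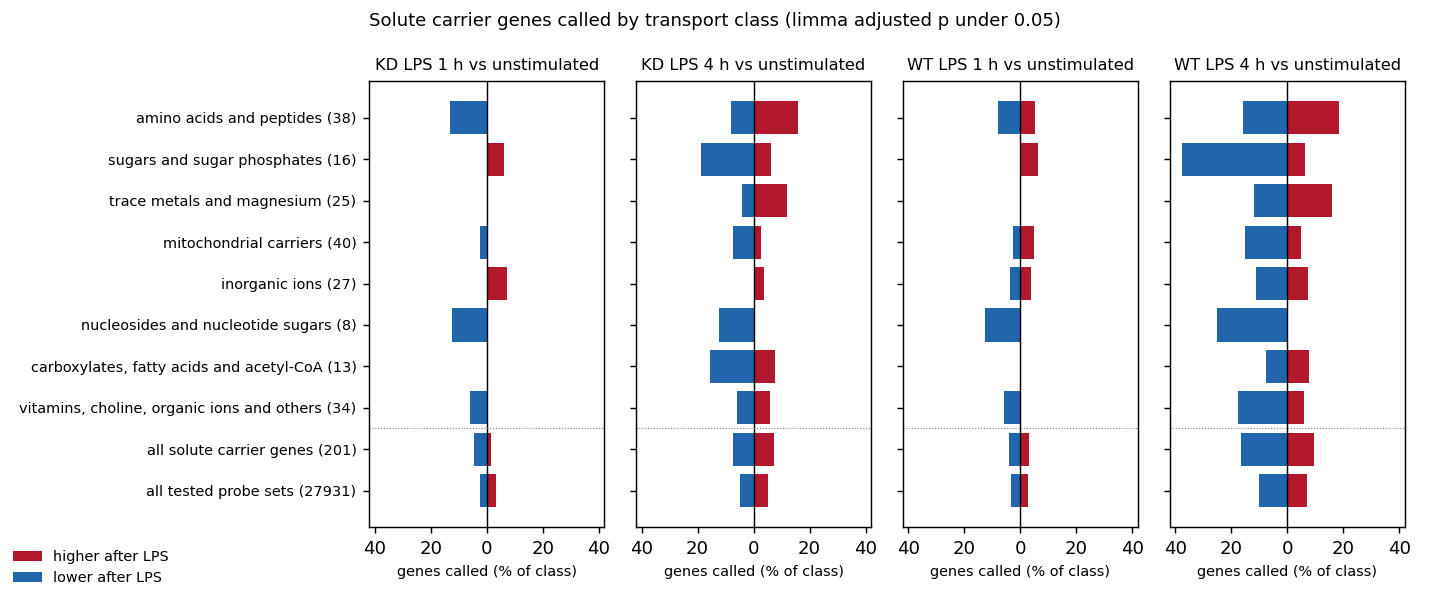
Share of the solute carrier genes of each transport class called higher (red, right of 0) or lower (blue, left of 0) after LPS in KD and WT cells at 1 h and 4 h, in percent of the class, with the class size in brackets; the last rows give all 201 carriers and all 27931 tested probe sets. In WT cells at 4 h, 6 of 16 sugar carriers were lower and 1 was higher, and the 38 amino acid and peptide carriers had 7 higher and 6 lower calls.

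Among sugar carriers, 1 gene rose and several fell at 4 h. Slc2a6 encodes a glucose transporter family member that resides on lysosomes. Slc2a6 signals in KD cells were 146 and 246 without LPS, 269.5 and 336 at 1 h and 741 and 749 at 4 h. In WT cells, Slc2a6 had signals of 133 and 131 without LPS, 223 and 319 at 1 h and 1304 and 1193 at 4 h. In both strains each array at 4 h lay above every unstimulated array of that strain, and the WT arrays at 4 h were higher than the KD ones. The log2 change at 4 h was 1.95 ± 0.20 (adjusted p = 1.51e-06) in KD cells, a 3.87-fold difference, and 3.20 ± 0.20 (adjusted p = 6.16e-10) in WT cells, a 9.2-fold difference and the highest among the 201 carriers. At 1 h the change was 0.66 ± 0.20 (adjusted p = 0.065) in KD cells, which was not called, and 0.99 ± 0.20 (adjusted p = 0.00437) in WT cells, where the call was lost without WT LPS 1 h replicate 2 (0.74).

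The sugar carriers that fell have other roles. Slc37a2, an exchanger of sugar phosphates in the endoplasmic reticulum, fell in both strains at 4 h. Slc37a2 signals in KD cells were 958 and 930.1 without LPS, 743 and 788 at 1 h and 452 and 495 at 4 h. In WT cells, Slc37a2 had signals of 842 and 913 without LPS, 961 and 831 at 1 h and 438 and 452 at 4 h. The 4 h arrays of both strains lay below all unstimulated arrays and the 1 h arrays, and the changes were -0.99 ± 0.11 (adjusted p = 5.25e-06) in KD and -0.97 ± 0.11 (adjusted p = 2.92e-06) in WT cells. Slc2a3 encodes the high-affinity glucose transporter GLUT3. It fell at 4 h by 0.75 ± 0.20 (adjusted p = 0.0198) in KD cells and by 0.77 ± 0.20 (adjusted p = 0.0107) in WT cells on the log2 scale. The KD call was lost without KD unstimulated replicate 2 or KD LPS 4 h replicate 1 (-0.54 to -0.52) and the WT call without WT unstimulated replicate 2 or WT LPS 4 h replicate 1 (-0.74 to -0.70). Slc45a4, assigned to a family of proton-coupled sugar carriers, changed by -0.74 ± 0.20 (adjusted p = 0.0183) in KD cells and -1.22 ± 0.20 (adjusted p = 0.000146) in WT cells. The KD call was lost without KD unstimulated replicate 2 or KD LPS 4 h replicate 1 (-0.60 to -0.53).

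Slc5a3, the sodium-coupled transporter of the osmolyte myo-inositol, fell in WT cells alone by the calls. Slc5a3 signals in KD cells were 597 and 516 without LPS, 744 and 634 at 1 h and 487 and 422 at 4 h. In WT cells, Slc5a3 had signals of 436 and 572 without LPS, 387 and 406 at 1 h and 152 and 186 at 4 h. The WT arrays at 4 h were far below the unstimulated ones, while in KD cells 4 h and unstimulated arrays were close, 487 and 422 against 597 and 516. The change at 4 h was -0.29 ± 0.15 (adjusted p = 0.296) in KD cells and -1.55 ± 0.15 (adjusted p = 4.62e-07) in WT cells, and the difference between these responses is given with the other interactions. Slc37a4, which brings glucose 6-phosphate into the endoplasmic reticulum, changed by -0.86 ± 0.27 (adjusted p = 0.034) in WT cells. That call was lost without either WT unstimulated array or either WT LPS 4 h array (-0.91 to -0.80). Slc5a2, the sodium-glucose cotransporter of the kidney, was the 1 sugar carrier called at 1 h in KD cells, at 0.84 ± 0.22 (adjusted p = 0.033), and the call was lost without KD unstimulated replicate 1 or either KD LPS 1 h array (0.66 to 1.03).

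Among metal carriers, both copper transporter genes rose at 4 h in both strains. Slc31a2 encodes a copper transporter of endosomes and lysosomes, and Slc31a1 the main copper importer of the plasma membrane. Slc31a2 signals in KD cells were 408 and 498 without LPS, 479 and 487 at 1 h and 1523 and 1739.7 at 4 h. In WT cells, Slc31a2 had signals of 831 and 585 without LPS, 614 and 667 at 1 h and 1700.2 and 1709 at 4 h. All 4 h arrays were higher than any unstimulated or 1 h array of either strain. The change was 1.84 ± 0.14 (adjusted p = 2.64e-08) in KD cells and 1.28 ± 0.14 (adjusted p = 1.69e-06) in WT cells, or 3.58-fold and 2.44-fold. Its other probe set gave 1.496 (adjusted p = 9.44e-06) in KD and 1.90 (adjusted p = 1.99e-07) in WT cells. Slc31a1 signals in KD cells were 663 and 709 without LPS, 616 and 634 at 1 h and 1058 and 1056 at 4 h. In WT cells, Slc31a1 had signals of 1078 and 949.7 without LPS, 779 and 944 at 1 h and 1536 and 1602 at 4 h. Within each strain the 4 h arrays were above the others, though the KD arrays at 4 h were just below WT unstimulated replicate 1. The change of Slc31a1 was 0.62 ± 0.11 (adjusted p = 0.000821) in KD cells and 0.63 ± 0.11 (adjusted p = 0.000381) in WT cells, and its other probe set gave 0.37 (adjusted p = 0.0726) in KD and 0.80 (adjusted p = 0.000131) in WT cells. Neither gene was called at 1 h, where Slc31a2 changed by 0.10 in KD and -0.12 in WT cells and Slc31a1 by -0.13 and -0.24 in KD and WT cells in turn. The genes are neighbours on chromosome 4 (GRCm38.p6), Slc31a2 at 62280393 to 62298412 and Slc31a1 at 62360583 to 62391769, with a gap of 62.2 kb and 1 protein-coding gene, Fkbp15, between them.

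Zinc carriers moved in both directions. Slc30a1, the zinc exporter of the plasma membrane and a classical zinc-responsive gene, had signals of 721 and 705 at 4 h in KD cells, against 506 and 550.0 without LPS. In WT cells it had 815 and 755 at 4 h, against 569 and 579 without LPS. The arrays did not overlap in either strain, and the changes were 0.43 ± 0.11 (adjusted p = 0.02) in KD and 0.45 ± 0.11 (adjusted p = 0.00965) in WT cells. The KD call was lost without KD unstimulated replicate 1 or either KD LPS 4 h array (0.37 to 0.45) and the WT call without WT unstimulated replicate 1 or WT LPS 4 h replicate 1 (0.39 to 0.44). Slc30a6, a zinc transporter of the Golgi, was called in WT cells alone: its signals were 336 and 339.5 at 4 h, against 176 and 149 without LPS, a change of 1.04 ± 0.20 (adjusted p = 0.000801). In KD cells its change was 0.18 ± 0.20 (adjusted p = 0.667), and the difference between the strains was not called (adjusted p = 0.116).

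Of the zinc importers, Slc39a10 fell in WT cells at 4 h, with signals of 263 and 286 against 483 and 375 without LPS, a change of -0.62 ± 0.13 (adjusted p = 0.00254) that was lost without WT unstimulated replicate 1 (-0.44). In KD cells its signals were 555 and 554 against 689 and 809.5 without LPS, which do not overlap, and the change of -0.43 ± 0.13 (adjusted p = 0.0506) was not called. Slc39a11, a zinc carrier of internal membranes, changed by -0.52 ± 0.14 (adjusted p = 0.021) in KD and -0.49 ± 0.14 (adjusted p = 0.0203) in WT cells. Its KD call was lost without KD unstimulated replicate 2 or either KD LPS 4 h array (-0.58 to -0.42) and its WT call without either WT unstimulated array or either WT LPS 4 h array (-0.55 to -0.43). Slc30a10, a manganese exporter with low signal, had 3.1 and 1.8 at 4 h in WT cells, against 24.2 and 16.4 without LPS. Its change of -1.84 ± 0.61 (adjusted p = 0.0429) rested on signals near the pseudocount and was lost without KD LPS 1 h replicate 2, either KD LPS 4 h array, either WT unstimulated array or either WT LPS 4 h array (-2.07 to -1.61). No metal carrier was called at 1 h in either strain by limma. The unadjusted p was under 0.05 for 3 of the 25 in KD cells, against 4921 of all 27931 probe sets. In WT cells it was under 0.05 for 4 of the 25, against 5184 of all probe sets.

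The peptide and histidine carriers of the endolysosome, Slc15a3 and Slc15a4, differed in their time course. Slc15a4 is known to be needed for signalling by endosomal Toll-like receptors, and Slc15a3 is its close relative. Slc15a3 signals in KD cells were 1485 and 1169 without LPS, 1102 and 1319.9 at 1 h and 2046 and 2129.7 at 4 h. In WT cells, Slc15a3 had signals of 800.5 and 941 without LPS, 1255 and 1174 at 1 h and 2441 and 2427 at 4 h. The 4 h arrays were the highest in both strains, and the unstimulated KD arrays were above the unstimulated WT ones. Slc15a3 changed at 4 h by 0.66 ± 0.12 (adjusted p = 0.000888) in KD and 1.48 ± 0.12 (adjusted p = 2.46e-08) in WT cells. At 1 h it changed by -0.13 ± 0.12 (adjusted p = 0.652) in KD cells and 0.48 ± 0.12 (adjusted p = 0.0194) in WT cells, where the call was lost without WT unstimulated replicate 1 or either WT LPS 1 h array (0.37 to 0.53).

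Slc15a4 signals in KD cells were 372 and 437 without LPS, 218 and 217 at 1 h and 424 and 410.3 at 4 h. In WT cells, Slc15a4 had signals of 288 and 314 without LPS, 208 and 214 at 1 h and 338 and 317 at 4 h. The 1 h arrays were the lowest in both strains, and by 4 h the signals were again near the unstimulated ones. Slc15a4 changed at 1 h by -0.88 ± 0.14 (adjusted p = 0.000469) in KD cells and -0.50 ± 0.14 (adjusted p = 0.0356) in WT cells. The WT call was lost without either KD LPS 4 h array, either WT unstimulated array, either WT LPS 1 h array or either WT LPS 4 h array (-0.56 to -0.44). At 4 h the changes of 0.049 in KD and 0.12 in WT cells were not called.

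Slc7a5, the light chain of the large neutral amino acid exchanger LAT1, was the 1 carrier called in all 4 LPS comparisons. Slc7a5 signals in KD cells were 410.5 and 404 without LPS, 298 and 281 at 1 h and 587 and 523 at 4 h. In WT cells, Slc7a5 had signals of 565 and 494 without LPS, 303 and 337 at 1 h and 678 and 796 at 4 h. In both strains the 1 h arrays lay below the unstimulated arrays and the 4 h arrays above them. The changes at 1 h were -0.49 ± 0.13 (adjusted p = 0.0337) in KD and -0.72 ± 0.13 (adjusted p = 0.00188) in WT cells, and at 4 h 0.44 ± 0.13 (adjusted p = 0.0387) in KD and 0.47 ± 0.13 (adjusted p = 0.0163) in WT cells. The KD calls were lost without either KD unstimulated array or either KD LPS 1 h array (-0.53 to -0.45) at 1 h and without either KD unstimulated array or either KD LPS 4 h array (0.36 to 0.52) at 4 h, and the WT calls without WT unstimulated replicate 1 (-0.62) at 1 h and without WT unstimulated replicate 2 or WT LPS 4 h replicate 2 (0.36 to 0.38) at 4 h. Slc3a2, the heavy chain that brings LAT1 to the surface, was called in WT cells at 4 h, at 0.42 ± 0.09 (adjusted p = 0.00171). In KD cells Slc3a2 changed by 0.062 ± 0.09 (adjusted p = 0.758) at 4 h.

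Slc7a1, the cationic amino acid transporter CAT1 that takes up arginine, rose at 4 h in both strains. Slc7a1 signals in KD cells were 2666 and 2289 without LPS, 2343 and 2221 at 1 h and 3497 and 3862 at 4 h. In WT cells, Slc7a1 had signals of 2884 and 2757 without LPS, 2138 and 2689.7 at 1 h and 4475 and 4115 at 4 h. The 4 h arrays were above all others, and the changes were 0.57 ± 0.10 (adjusted p = 0.00105) in KD and 0.61 ± 0.10 (adjusted p = 0.000325) in WT cells. Slc1a4, a sodium-coupled carrier of alanine, serine and cysteine, was lower at 1 h and higher at 4 h in KD cells. Its KD signals were 1048 and 1064 without LPS, 879 and 625 at 1 h and 1500.3 and 1592 at 4 h, with changes of -0.51 ± 0.15 (adjusted p = 0.0481) and 0.55 ± 0.15 (adjusted p = 0.0203). The 1 h call was lost without either KD unstimulated array, KD LPS 1 h replicate 2, either KD LPS 4 h array or either WT unstimulated array (-0.52 to -0.26) and the 4 h call without either KD unstimulated array or either KD LPS 4 h array (0.50 to 0.59). In WT cells Slc1a4 changed by -0.31 at 1 h and 0.37 at 4 h, and neither was called.

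The taurine carrier Slc6a6 and the creatine carrier Slc6a8 fell. Slc6a8 signals in KD cells were 1078 and 1078 without LPS, 651 and 753 at 1 h and 716 and 658 at 4 h. In WT cells, Slc6a8 had signals of 1250.0 and 1148 without LPS, 1039.9 and 1279 at 1 h and 739.9 and 721 at 4 h. In KD cells both 1 h and 4 h arrays were below the unstimulated ones, whereas in WT cells 1 h and unstimulated arrays overlapped. Slc6a8 changed by -0.62 ± 0.12 (adjusted p = 0.0026) at 1 h and -0.65 ± 0.12 (adjusted p = 0.000871) at 4 h in KD cells, and by -0.71 ± 0.12 (adjusted p = 0.000179) at 4 h in WT cells. The 1 h call in KD cells was lost without KD LPS 1 h replicate 1 (-0.51). Another probe set of Slc6a8, with a mean signal of 141, had the same sign and no call. It gave -0.56 (adjusted p = 0.112) at 1 h and -0.30 (adjusted p = 0.424) at 4 h in KD cells, and -0.20 (adjusted p = 0.565) at 4 h in WT cells. Slc6a6 changed at 4 h by -0.40 ± 0.11 (adjusted p = 0.0192) in KD and -0.32 ± 0.11 (adjusted p = 0.0433) in WT cells. Another Slc6a6 set, with a mean signal of 2059, gave -0.42 (adjusted p = 0.0111) in KD and -0.15 (adjusted p = 0.39) in WT cells. Weaker sets gave -0.83 and -1.02 in KD and -0.55 and -0.56 in WT cells, with no call. For the set taken, the KD call was lost without either KD unstimulated array or either KD LPS 4 h array (-0.44 to -0.37). Its WT call was lost without either KD LPS 1 h array, either KD LPS 4 h array, WT unstimulated replicate 1 or either WT LPS 4 h array (-0.38 to -0.16), and without WT unstimulated replicate 2 the call held at -0.49.

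Among the remaining amino acid carriers, Slc43a3 rose in both strains at 4 h. Slc43a3, a purine nucleobase carrier of an amino acid transporter family, had signals of 131 and 128 at 4 h in KD cells, against 58.9 and 56.7 without LPS, and 149 and 164 in WT cells, against 90.3 and 93.0 without LPS. The changes were 1.10 ± 0.20 (adjusted p = 0.0011) in KD and 0.74 ± 0.20 (adjusted p = 0.015) in WT cells, and the WT call was lost without either WT unstimulated array or either WT LPS 4 h array (0.67 to 0.81). Slc43a2, a carrier of large neutral amino acids, was called higher at 1 h and lower at 4 h in WT cells, with changes of 0.76 ± 0.18 (adjusted p = 0.0143) and -0.83 ± 0.18 (adjusted p = 0.00275). The 1 h call was lost without WT unstimulated replicate 1 or WT LPS 1 h replicate 1 (0.51 to 0.64) and the 4 h call without WT LPS 4 h replicate 2 (-0.63). At 1 h 2 other probe sets of Slc43a2 gave 0.049 (adjusted p = 0.923) and 0.13 (adjusted p = 0.89), and at 4 h the same 2 gave -0.76 (adjusted p = 0.00201) and -0.89 (adjusted p = 0.057). Slc6a9, a glycine transporter, changed by 0.86 ± 0.23 (adjusted p = 0.0237) at 4 h in KD cells and by -0.89 ± 0.23 (adjusted p = 0.0272) at 1 h in WT cells. The KD call was lost without KD unstimulated replicate 2 or either KD LPS 4 h array (0.64 to 0.91) and the WT call without either WT unstimulated array or WT LPS 1 h replicate 1 (-1.05 to -0.57).

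At 4 h in WT cells the glutamine carriers Slc38a1 and Slc38a2 changed by 0.37 ± 0.12 (adjusted p = 0.0384) and 0.34 ± 0.10 (adjusted p = 0.0185), Slc38a10 by -0.43 ± 0.10 (adjusted p = 0.00304), the lysosomal amino acid sensor Slc38a9 by -0.59 ± 0.17 (adjusted p = 0.0221) and the lysosomal amino acid exporter Slc36a1 by -0.85 ± 0.23 (adjusted p = 0.015). Each of these 5 calls was lost in at least 1 fit with an array left out. Slc38a1 was lost without either WT unstimulated array or WT LPS 4 h replicate 1 (0.22 to 0.38). Slc38a2 was lost without either WT unstimulated array or either WT LPS 4 h array (0.30 to 0.38) and Slc38a10 without WT LPS 4 h replicate 1 (-0.34). Slc38a9 was lost without either WT unstimulated array or WT LPS 4 h replicate 2 (-0.65 to -0.41) and Slc36a1 without either WT unstimulated array or WT LPS 4 h replicate 2 (-0.90 to -0.61). In KD cells Slc36a2, a proton-coupled carrier of small amino acids, had 3.7 and 5.6 at 1 h against 53.5 and 23.6 without LPS. Its change of -2.16 ± 0.44 (adjusted p = 0.00472) was the lowest at 1 h, reached values around the pseudocount and was lost without KD unstimulated replicate 1 (-1.64). Slc7a4, a relative of the arginine carriers with no settled substrate, changed by -1.47 ± 0.41 (adjusted p = 0.0286) at 4 h in KD cells. That call was lost without KD unstimulated replicate 2 or either KD LPS 4 h array (-1.63 to -1.08), and another probe set of Slc7a4 gave 0.35.

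Among mitochondrial carriers, the mitoferrin gene Slc25a37, whose product imports iron for heme and iron-sulfur cluster synthesis, rose in both strains at 4 h. Slc25a37 signals in KD cells were 297 and 273 without LPS, 329.6 and 269.5 at 1 h and 716 and 730.1 at 4 h. In WT cells, Slc25a37 had signals of 462 and 612 without LPS, 374 and 313 at 1 h and 1056 and 1295 at 4 h. The 4 h arrays stood above all others of their strain, and WT arrays exceeded KD arrays without LPS and at 4 h. The change at 4 h was 1.33 ± 0.15 (adjusted p = 7.15e-06) in KD and 1.13 ± 0.15 (adjusted p = 2.29e-05) in WT cells, or 2.51-fold and 2.19-fold. At 1 h Slc25a37 changed by 0.063 ± 0.15 (adjusted p = 0.889) in KD cells, and by -0.63 ± 0.15 (adjusted p = 0.0175) in WT cells, a call lost without WT unstimulated replicate 2 or WT LPS 1 h replicate 2 (-0.51 to -0.43). The carriers that exchange ATP-magnesium for phosphate went in opposite directions in WT cells at 4 h. Slc25a25 had 503 and 712 against 270.0 and 246 without LPS, a change of 1.20 ± 0.18 (adjusted p = 8.41e-05), and another probe set of Slc25a25 gave 1.21 ± 0.83 (adjusted p = 0.385). Slc25a24 had 1426 and 1465 against 2561 and 2200.4 without LPS, a change of -0.71 ± 0.10 (adjusted p = 2.15e-05).

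Slc25a45, a member of the mitochondrial carrier family, fell in both strains. Slc25a45 signals in KD cells were 339 and 381 without LPS, 246 and 269 at 1 h and 171 and 230.4 at 4 h. In WT cells, Slc25a45 had signals of 259 and 308 without LPS, 251 and 260.4 at 1 h and 114 and 111 at 4 h. At 4 h the arrays of both strains were below their unstimulated arrays, with changes of -0.84 ± 0.17 (adjusted p = 0.00223) in KD and -1.29 ± 0.17 (adjusted p = 1.22e-05) in WT cells. The KD call was lost without KD LPS 4 h replicate 1 (-0.63). Slc25a13, the aspartate-glutamate carrier citrin, had 262 and 251 at 4 h in KD cells against 423 and 379 without LPS, a change of -0.63 ± 0.14 (adjusted p = 0.00683) lost without KD unstimulated replicate 1 or KD LPS 4 h replicate 2 (-0.60 to -0.55). In WT cells Slc25a13 was called at 1 h, at 0.53 ± 0.14 (adjusted p = 0.0336), and the call was lost without either WT unstimulated array or either WT LPS 1 h array (0.46 to 0.61). Slc25a30 changed by -1.26 ± 0.27 (adjusted p = 0.00425) at 4 h in KD cells, lost without KD unstimulated replicate 2 or KD LPS 4 h replicate 1 (-1.06 to -0.98). Slc25a39, the glutathione importer, changed by -0.40 ± 0.09 (adjusted p = 0.0126) at 1 h in KD cells, lost without KD unstimulated replicate 1 or KD LPS 1 h replicate 1 (-0.37 to -0.33), and 4 other probe sets of Slc25a39 gave -0.028 (adjusted p = 0.94), 0.09 (adjusted p = 0.822), -0.14 (adjusted p = 0.715) and, at a mean signal of 9.77, 2.41 (adjusted p = 0.146).

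Further calls in WT cells concerned Slc25a51, the carrier of NAD, at -0.50 ± 0.12 (adjusted p = 0.0049), the adenine nucleotide exchanger Slc25a4 at -0.29 ± 0.09 (adjusted p = 0.0321), the pyrimidine nucleotide carrier Slc25a36 at -0.39 ± 0.11 (adjusted p = 0.0226) and the ornithine carrier Slc25a15 at -0.78 ± 0.25 (adjusted p = 0.0383), each at 4 h. Slc25a51 was lost without WT unstimulated replicate 2 (-0.37) and Slc25a4 without either WT unstimulated array or either WT LPS 4 h array (-0.34 to -0.24). Other probe sets of Slc25a4, with mean signals of 1430 and 1142, gave -0.049 (adjusted p = 0.815) and -0.10 (adjusted p = 0.545). Slc25a36 was lost without either WT unstimulated array or either WT LPS 4 h array (-0.43 to -0.35) and Slc25a15 without WT unstimulated replicate 1 or either WT LPS 4 h array (-0.82 to -0.59). Slc25a40 was called at 1 h, at 0.87 ± 0.23 (adjusted p = 0.0296), with signals of 323 and 180.0 at 1 h against 123 and 138 without LPS. It was lost without either WT unstimulated array or WT LPS 1 h replicate 1 (0.46 to 0.95).

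Of the carriers of inorganic ions, Slc20a1 was the 1 gene higher at 1 h in both strains. It encodes the sodium-phosphate cotransporter PiT1, also known as a receptor of gammaretroviruses. Slc20a1 signals in KD cells were 517 and 560.1 without LPS, 849 and 869 at 1 h and 504 and 603 at 4 h. In WT cells, Slc20a1 had signals of 497 and 475 without LPS, 1063 and 1173 at 1 h and 838 and 814 at 4 h. The 1 h arrays were the highest in both strains, and at 4 h the KD arrays overlapped the unstimulated ones while the WT arrays did not. The change at 1 h was 0.67 ± 0.11 (adjusted p = 0.00109) in KD and 1.19 ± 0.11 (adjusted p = 1.16e-06) in WT cells, and at 4 h 0.035 ± 0.11 (adjusted p = 0.911) in KD and 0.76 ± 0.11 (adjusted p = 7.7e-05) in WT cells. The WT call at 4 h depended on the probe set: the other one, with a mean signal of 28.1, gave -0.013 ± 0.47 with no call. At 1 h that probe set gave 0.99 ± 0.47 (adjusted p = 0.284) in KD and 1.53 ± 0.47 (adjusted p = 0.0642) in WT cells. In KD cells the bicarbonate cotransporter gene Slc4a4 had 43.8 and 43.9 at 1 h and 56.6 and 38.7 at 4 h, against 6.2 and 19 without LPS. Its changes of 1.62 ± 0.44 (adjusted p = 0.0381) and 1.70 ± 0.44 (adjusted p = 0.0176) were lost without KD unstimulated replicate 1, either KD LPS 1 h array, KD LPS 4 h replicate 1, either WT unstimulated array or WT LPS 4 h replicate 1 (1.04 to 1.62) at 1 h and without KD unstimulated replicate 1 or KD LPS 4 h replicate 1 (1.13 to 1.45) at 4 h.

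Slc26a11, an anion exchanger known as a sulfate carrier, fell in WT cells. In WT cells, Slc26a11 had signals of 73.3 and 70.9 without LPS, 17.4 and 30.5 at 1 h and 20.7 and 6.0 at 4 h. The arrays after LPS were below both unstimulated arrays, and 1 array at 4 h was near the pseudocount. Its changes were -1.47 ± 0.42 (adjusted p = 0.0418) at 1 h and -2.24 ± 0.42 (adjusted p = 0.00066) at 4 h, and the 4 h change was the lowest of the 201 in WT cells at that time. The 1 h call was lost without either KD LPS 1 h array, KD LPS 4 h replicate 2, either WT unstimulated array or either WT LPS 1 h array (-1.81 to -1.13). In KD cells Slc26a11 changed by -0.69 ± 0.42 (adjusted p = 0.372) at 4 h. The other calls at 4 h in WT cells were Slc9a7, a sodium-proton exchanger of the Golgi, at -1.71 ± 0.57 (adjusted p = 0.0437), Slc12a9 at -0.81 ± 0.24 (adjusted p = 0.0253), and the chloride-bicarbonate exchanger Slc4a2 at 0.60 ± 0.19 (adjusted p = 0.0384). Slc9a7 was lost without either WT unstimulated array, either WT LPS 1 h array or either WT LPS 4 h array (-2.12 to -1.31). Slc12a9 was lost without WT unstimulated replicate 2 or WT LPS 4 h replicate 2 (-0.63 to -0.61) and Slc4a2 without either WT unstimulated array or either WT LPS 4 h array (0.46 to 0.73).

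The lysosomal nucleoside transporter gene Slc29a3, whose loss in humans causes histiocytosis, was called lower at 1 h and 4 h in KD cells and at 4 h in WT cells. Slc29a3 signals in KD cells were 601 and 746 without LPS, 346 and 338 at 1 h and 349.7 and 371 at 4 h. In WT cells, Slc29a3 had signals of 494 and 529 without LPS, 451 and 416 at 1 h and 288 and 241 at 4 h. In KD cells both LPS groups were below the unstimulated arrays at similar levels. In WT cells the 4 h arrays were the lowest. The changes were -0.96 ± 0.14 (adjusted p = 0.00019) at 1 h and -0.89 ± 0.14 (adjusted p = 0.000211) at 4 h in KD cells, and -0.24 ± 0.14 (adjusted p = 0.397) at 1 h and -0.94 ± 0.14 (adjusted p = 5.19e-05) at 4 h in WT cells. The difference between the strains at 1 h was -0.72 ± 0.20 (adjusted p = 0.125), which was not called. Slc35a5, of the nucleotide sugar transporter family, fell in WT cells, by 0.60 ± 0.12 (adjusted p = 0.00557) at 1 h and 0.75 ± 0.12 (adjusted p = 0.000206) at 4 h on the log2 scale. The 1 h call was lost without WT unstimulated replicate 1 or WT LPS 1 h replicate 2 (-0.50 to -0.49).

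In the class of carboxylate and fatty acid carriers, Slc16a10, a transporter of aromatic amino acids and thyroid hormone, rose. Its signals were 1894 and 1879 at 4 h in KD cells, against 1422 and 1446 without LPS, and 2332 and 2471 in WT cells, against 1594 and 1408 without LPS. The changes were 0.39 ± 0.09 (adjusted p = 0.00767) in KD and 0.68 ± 0.09 (adjusted p = 2.04e-05) in WT cells. The KD call was lost without either KD LPS 4 h array (0.39 to 0.40). The monocarboxylate carrier gene Slc16a7 fell, by 0.60 ± 0.15 (adjusted p = 0.0144) in KD and 0.67 ± 0.15 (adjusted p = 0.00391) in WT cells on the log2 scale at 4 h, and the KD call was lost without KD unstimulated replicate 2 or KD LPS 4 h replicate 2 (-0.52 to -0.40). Slc27a1, a fatty acid transport protein, changed by -0.32 ± 0.09 (adjusted p = 0.0327) at 4 h in KD cells, lost without either KD unstimulated array or KD LPS 4 h replicate 1 (-0.35 to -0.22).

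Among carriers of vitamins, choline and other organic solutes, Slc44a1 and Slc49a4 rose at 4 h and Slc17a5 and Slc66a2 fell. Slc44a1, a choline transporter, had 2708 and 2763 at 4 h in KD cells, against 2114 and 2304 without LPS, and 3447 and 3196 in WT cells, against 1807 and 1811 without LPS. The changes were 0.31 ± 0.08 (adjusted p = 0.0208) in KD and 0.87 ± 0.08 (adjusted p = 2.28e-07) in WT cells, and the KD call was lost without KD unstimulated replicate 1 or either KD LPS 4 h array (0.25 to 0.32). Slc49a4, a lysosomal carrier linked to pyridoxine, was called lower at 1 h in WT cells and higher at 4 h in both strains. Slc49a4 signals in KD cells were 481 and 592 without LPS, 414 and 406 at 1 h and 886 and 850.2 at 4 h. In WT cells, Slc49a4 had signals of 882 and 736 without LPS, 424 and 446 at 1 h and 964 and 1305 at 4 h. In both strains the 1 h arrays were the lowest and the 4 h arrays the highest. The changes at 1 h were -0.38 ± 0.14 (adjusted p = 0.154) in KD and -0.88 ± 0.14 (adjusted p = 0.000566) in WT cells, and at 4 h 0.70 ± 0.14 (adjusted p = 0.00285) in KD and 0.48 ± 0.14 (adjusted p = 0.0261) in WT cells. The WT call at 4 h was lost without WT unstimulated replicate 2 or WT LPS 4 h replicate 2 (0.26 to 0.35).

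Slc66a2 belongs to the PQ-loop family of organelle carriers. Slc66a2 signals in KD cells were 293 and 324 without LPS, 136 and 149 at 1 h and 124 and 142 at 4 h. In WT cells, Slc66a2 had signals of 236 and 274 without LPS, 187 and 175 at 1 h and 90.1 and 127 at 4 h. After LPS the arrays of both strains were below the unstimulated ones. The changes were -1.09 ± 0.19 (adjusted p = 0.00101) at 1 h and -1.19 ± 0.19 (adjusted p = 0.000217) at 4 h in KD cells, and -0.48 ± 0.19 (adjusted p = 0.155) at 1 h and -1.21 ± 0.19 (adjusted p = 8.63e-05) at 4 h in WT cells. The difference between the strains at 1 h was -0.61 ± 0.26 (adjusted p = 0.387), which was not called. Slc66a2 had another probe set, with a mean signal of 71.35. In KD cells that set gave -0.35 (adjusted p = 0.555) at 1 h and -0.76 (adjusted p = 0.0818) at 4 h, and neither was called. In WT cells it gave -1.05 (adjusted p = 0.00893) at 4 h. Its relative Slc66a1, which exports cationic amino acids from lysosomes, changed by -0.99 ± 0.27 (adjusted p = 0.0383) at 1 h in KD cells, lost without either KD unstimulated array or KD LPS 1 h replicate 1 (-1.19 to -0.70). Slc17a5, the sialic acid exporter of the lysosome, changed at 4 h by -0.63 ± 0.15 (adjusted p = 0.00779) in KD and -0.86 ± 0.15 (adjusted p = 0.00027) in WT cells, and the KD call was lost without KD unstimulated replicate 2 or KD LPS 4 h replicate 2 (-0.61 to -0.54).

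Called in WT and not in KD cells, and with no called difference between the strains, the ergothioneine carrier Slc22a4 changed by -0.93 ± 0.22 (adjusted p = 0.00476) at 4 h, the lysosomal carrier Slc46a3 by -1.96 ± 0.44 (adjusted p = 0.00367), the heme transporter Slc48a1 by -0.50 ± 0.13 (adjusted p = 0.00983) and Slc10a7 by -0.65 ± 0.17 (adjusted p = 0.0126). The thiamine transporter Slc19a2 changed by -0.55 ± 0.13 (adjusted p = 0.0158) at 1 h. Slc46a3 had 2.7 and 17.1 at 4 h against 40.2 and 47.7 without LPS and was lost without WT LPS 4 h replicate 1 (-1.16). Slc48a1 was lost without WT unstimulated replicate 2 or WT LPS 4 h replicate 1 (-0.37 to -0.32) and Slc10a7 without either WT unstimulated array or WT LPS 4 h replicate 1 (-0.66 to -0.53). Slc19a2 was lost without WT unstimulated replicate 1 or WT LPS 1 h replicate 2 (-0.47 to -0.46).

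**Figure D2:**
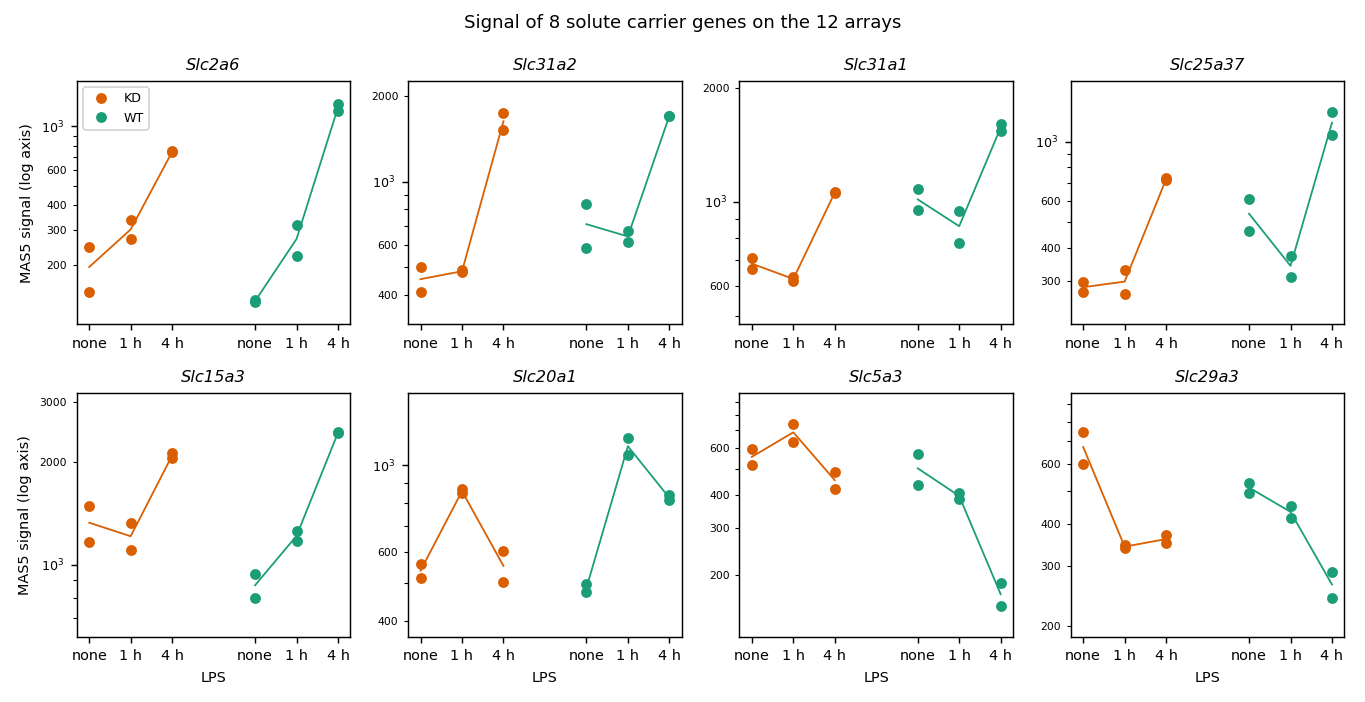
MAS5 signal (log axis, own scale in each panel) of 8 solute carrier genes on each of the 12 arrays, KD in orange at the left and WT in green at the right of each panel, without LPS and after 1 h and 4 h of LPS; points are single arrays and lines join the means of the 2 replicates. Slc2a6, Slc31a2, Slc31a1, Slc25a37 and Slc15a3 are highest at 4 h in both strains, Slc20a1 is highest at 1 h, and Slc5a3 falls to 152 and 186 at 4 h in WT cells, against 487 and 422 at 4 h in KD cells.

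Calls were compared between the strains, whose arrays are separate. Both strains share 1 estimate of the spread for each probe set, so their calls are not independent. At 4 h 12 genes were higher in both, which is 80.0% of the 15 higher in KD cells and 63.2% of the 19 higher in WT cells. The same shares over all probe sets were 61.8% of those higher in KD and 47.1% of those higher in WT cells. The 12 genes are 5.97% of the carriers, against 3.27% of all probe sets called higher in both strains. A further 11 genes were lower in both, or 73.3% of the 15 lower in KD cells and 33.3% of the 33 lower in WT cells. Over all probe sets these shares were 62.3% and 28.7% in KD and WT cells, near those of the carriers. The 11 genes are 5.47% of the carriers, against 2.93% of all probe sets called lower in both. At 4 h 0 genes were called in opposite directions. At 1 h the genes shared were Slc20a1, higher in both strains, and Slc15a4 and Slc7a5, lower in both, against 1.35% and 0.934% of all probe sets called higher and lower in both. By class, the 12 higher genes include 4 of amino acids and peptides, 3 of trace metals, and 1 each of sugars, mitochondrial carriers and carboxylates, with 2 from the class of vitamins and other solutes. The 11 lower genes include 3 carriers of sugars and sugar phosphates and 2 of amino acids.

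**Figure D3:**
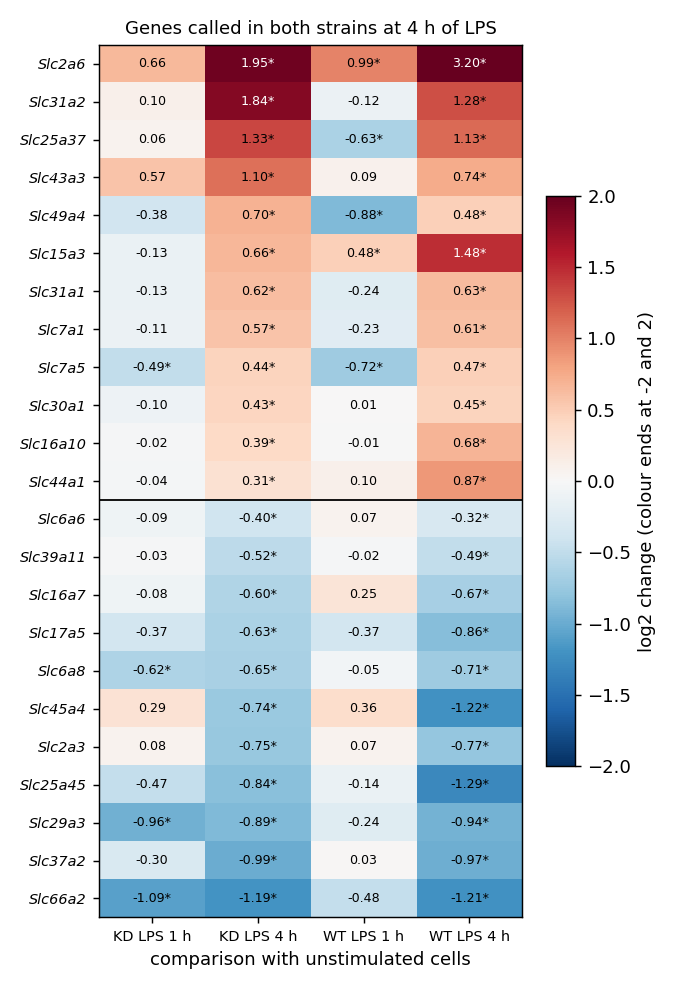
Log2 change after LPS, against unstimulated cells of the same strain, of the 12 genes called higher and the 11 called lower in both strains at 4 h, in rows, for KD and WT cells at 1 h and 4 h, in columns; numbers are log2 changes, an asterisk marks an adjusted p under 0.05, and the colour ends at -2 and 2. Slc2a6 changes by 1.95 in KD and 3.20 in WT cells at 4 h, and Slc7a5 and Slc49a4 are below 0 at 1 h and above 0 at 4 h in both strains.

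The 250 bases before the start of these genes were searched for motifs of factors that LPS, amino acid shortage or metals are known to engage. RefSeq sequences (GRCm38.p6) were at hand for 8 of the 12 higher and 5 of the 11 lower genes. On both strands, the motifs were the kappaB site by its usual consensus, the AP-1 site TGANTCA, the core of the interferon-stimulated response element by name, the amino acid response element core TGATGNAA, and the metal response element core TGCACNC or TGCGCNC. Windows of 4 genes are shown: that of the gene with the highest change, those of the neighbouring copper transporter genes, and that of Slc49a4, the 1 window that holds several motifs. They run 5′ to 3′ on the strand of the gene, in lower case with motif letters in capitals. Each ends at a transcript start of the RefSeq table, which for Slc31a2 and Slc31a1 lies inside the annotated span of the gene.

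Slc2a6, chr2:27027999-27028248, minus strand: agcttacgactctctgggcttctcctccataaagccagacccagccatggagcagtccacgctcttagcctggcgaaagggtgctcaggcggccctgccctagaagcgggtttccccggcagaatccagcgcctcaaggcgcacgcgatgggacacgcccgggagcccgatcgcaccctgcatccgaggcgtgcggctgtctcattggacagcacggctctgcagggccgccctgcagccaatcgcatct
Slc31a2, chr4:62286179-62286428, plus strand: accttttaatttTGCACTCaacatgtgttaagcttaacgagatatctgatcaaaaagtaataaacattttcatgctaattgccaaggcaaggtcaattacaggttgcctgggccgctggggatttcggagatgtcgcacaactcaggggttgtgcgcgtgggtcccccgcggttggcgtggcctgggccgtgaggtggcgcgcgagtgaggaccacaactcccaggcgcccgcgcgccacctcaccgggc
Slc31a1, chr4:62360451-62360700, plus strand: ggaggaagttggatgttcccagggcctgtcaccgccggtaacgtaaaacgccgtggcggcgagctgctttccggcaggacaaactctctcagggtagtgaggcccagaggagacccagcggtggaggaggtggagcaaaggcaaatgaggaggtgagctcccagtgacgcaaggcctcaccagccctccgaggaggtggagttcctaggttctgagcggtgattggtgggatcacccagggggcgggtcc
Slc49a4, chr16:35769371-35769620, minus strand: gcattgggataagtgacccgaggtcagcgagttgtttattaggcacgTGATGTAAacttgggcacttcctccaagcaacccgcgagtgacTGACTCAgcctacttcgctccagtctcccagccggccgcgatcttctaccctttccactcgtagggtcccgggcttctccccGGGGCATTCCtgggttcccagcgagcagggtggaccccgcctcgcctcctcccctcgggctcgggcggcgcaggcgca

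The window of Slc49a4 holds, from its 5′ end, an amino acid response element core at 203 to 196 bases before the start, an AP-1 site at 160 to 154 and a kappaB site at 78 to 69. The capitals in the Slc31a2 window mark a metal response element core at 238 to 232 bases, and the windows of Slc2a6 and Slc31a1 hold none of the motifs. Of the 8 higher genes, 1 held a kappaB site, 2 an AP-1 site (Slc49a4 and Slc7a1), 1 an amino acid response element core and 3, or 37.5%, a metal response element core (Slc30a1, Slc31a2 and Slc44a1), and 0 held the interferon-stimulated core. Of the 5 lower genes, Slc37a2 held an AP-1 site and Slc39a11 a metal response element core. Of all 27025 genes with such windows, 8.23% held the kappaB site, 7.82% the AP-1 site, 3.46% the interferon-stimulated core, 3.91% the amino acid core and 23.8% the metal core. Of the 156 carriers with a window, 12.2% held the kappaB site, 9.62% the AP-1 site, 2.56% each the interferon-stimulated and the amino acid core and 35.3% the metal core. By windows, of which there were 32851, the shares over all genes were 7.25%, 6.75%, 2.98%, 3.45% and 21.4% in the same order. A match only says that these letters occur in the window.

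The strains were set against each other by the difference of their responses, KD minus WT, fitted as an interaction. At 1 h limma called 0 of the 201 carriers, against 0.326% of all probe sets. The unadjusted p was under 0.05 for 24 of the 201, against 3041 of all 27931 probe sets. At 4 h 8 carriers were called, 4 in each direction, which is 3.98% of the 201 against 3.07% of all probe sets, 1.88% higher and 1.19% lower. Leaving out the first or the second KD array at 4 h left 1 or 5 calls, leaving out the first or the second WT array at 4 h left 2 or 5, and leaving out WT unstimulated replicate 1 left 1. With the variance prior without a trend it was 0. Of 9 stromal markers tested, 6 were called with a higher response in KD than in WT cells at 4 h. Of 8 macrophage markers, 2 were called with a lower response in KD cells and 0 with a higher one. The part of these marker lists in the differences was not tested.

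The response of Slc5a3, the myo-inositol carrier, differed by 1.26 ± 0.22 (adjusted p = 0.00363), and Slc5a3 was the 1 gene of the 8 called in every fit with an array left out, at 1.06 to 1.45. Another probe set of Slc5a3, with a mean signal of 95.1, gave 0.74 (adjusted p = 0.259). A further set, with a mean signal of 20.9, gave -0.34 (adjusted p = 0.882). Slc2a6, the lysosomal glucose transporter family member, rose less in KD cells, with a difference of -1.25 ± 0.28 (adjusted p = 0.0203). Its call was lost without KD unstimulated replicate 2, either KD LPS 4 h array, either WT unstimulated array or WT LPS 4 h replicate 1 (-1.26 to -0.88). Slc15a3, the peptide and histidine carrier, differed by -0.82 ± 0.17 (adjusted p = 0.011). In this gene the unstimulated KD signals were 1485 and 1169, against 800.5 and 941 in WT cells, and the 4 h signals were 2046 and 2129.7 in KD and 2441 and 2427 in WT cells. The call of Slc15a3 was lost without KD LPS 4 h replicate 1, WT unstimulated replicate 1 or WT LPS 4 h replicate 1 (-0.82 to -0.71). Slc44a1, the choline carrier, differed by -0.57 ± 0.12 (adjusted p = 0.0117), lost without KD LPS 4 h replicate 1, WT unstimulated replicate 1 or WT LPS 4 h replicate 1 (-0.56 to -0.51). Other Slc44a1 sets, with mean signals of 45.9 and 24.7, had the opposite sign, at 0.16 (adjusted p = 0.909) and 0.34 (adjusted p = 0.883).

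The response of the phosphate carrier Slc20a1 differed by -0.72 ± 0.16 (adjusted p = 0.0194). That call was lost without KD unstimulated replicate 2, KD LPS 4 h replicate 1, either WT unstimulated array or either WT LPS 4 h array (-0.76 to -0.60). The other probe set of Slc20a1, with a mean signal of 28.1, gave 0.62 ± 0.67. Slc35a5, with a difference of 0.86 ± 0.18 (adjusted p = 0.0113), had KD signals of 1147 and 881 at 4 h against 977 and 893 without LPS. In WT cells Slc35a5 had 802 and 825 at 4 h against 1474 and 1281 without LPS. Its call was lost without KD LPS 4 h replicate 1, WT unstimulated replicate 1 or WT LPS 4 h replicate 1 (0.67 to 0.84). Other Slc35a5 sets, with mean signals of 537, 76.3 and 32.25, gave 0.78 (adjusted p = 0.113), 0.24 (adjusted p = 0.838) and -0.041 (adjusted p = 0.985). Slc25a24, the ATP-magnesium carrier, differed by 0.52 ± 0.14 (adjusted p = 0.0434), lost without KD unstimulated replicate 2, either KD LPS 4 h array, WT unstimulated replicate 1 or either WT LPS 4 h array (0.42 to 0.57). Slc2a8, a glucose transporter of internal membranes with low signal, had 25.6 and 57.5 at 4 h against 8.2 and 19.1 without LPS in KD cells, and 31.7 and 4.0 against 59.3 and 48.9 in WT cells. Its difference of 3.07 ± 0.82 (adjusted p = 0.0491) was lost without KD unstimulated replicate 1, either KD LPS 1 h array, either KD LPS 4 h array, either WT unstimulated array, either WT LPS 1 h array or WT LPS 4 h replicate 2 (2.02 to 3.59), and the WT change of -1.74 ± 0.58 (adjusted p = 0.0456) was lost without either KD LPS 1 h array, either WT unstimulated array, either WT LPS 1 h array or WT LPS 4 h replicate 2 (-1.87 to -0.69). Without WT LPS 4 h replicate 1 it was -2.79.

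**Figure D4:**
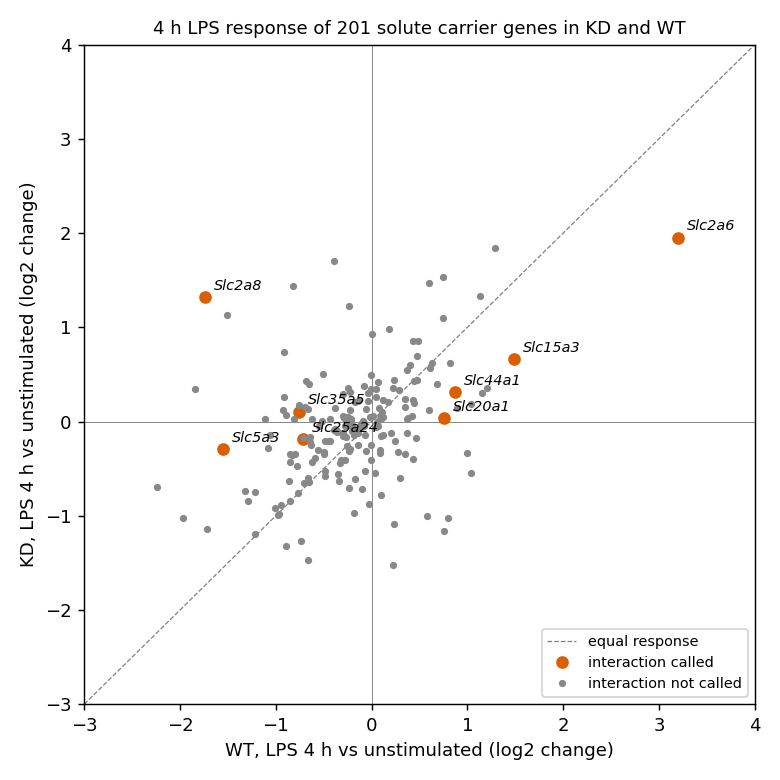
Log2 change after 4 h of LPS in KD cells (vertical axis) against that in WT cells (horizontal axis) for the 201 solute carrier genes, 1 point per gene; the dashed line marks equal responses and orange points are the 8 genes with a called interaction. Slc2a6 lies at 1.95 in KD and 3.20 in WT cells, and Slc5a3 at -0.29 in KD and -1.55 in WT cells.

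Without LPS, 4 carriers were higher and 7 lower in KD than in WT cells, which is 5.47% of the 201 against 5.25% of all probe sets, 2.37% higher and 2.87% lower. The 11 calls became 2 without WT unstimulated replicate 1, 7 in a fit of these 4 arrays alone and 0 with the variance prior without a trend. In the same comparison 5 of 9 stromal markers were called lower in KD cells, with summed signals of 2448 to 2849 against 4734 to 4933 in WT cells, and S100a8, the 1 gene of the neutrophil list with a strong signal, had 1761 and 1946 in KD against 769 and 742 in WT cells. The other 6 genes of that list had signals between 1.3 and 40.4 on these arrays. Of 8 macrophage markers, 3 were called higher and 0 lower in KD cells, with a median log2 difference of 0.36. The part of these marker lists in the differences of the carriers was not tested. Slc39a10, the zinc importer, was higher in KD cells, with 689 and 809.5 against 483 and 375 in WT cells, a difference of 0.81 ± 0.13 (adjusted p = 0.00155). Slc25a37, mitoferrin, was lower, with 297 and 273 against 462 and 612 in WT cells, a difference of -0.89 ± 0.15 (adjusted p = 0.00214). These 2 were called in each fit with an array left out.

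The probe sets taken for both copper transporter genes were lower in unstimulated KD cells, and their other probe sets were not. Slc31a1 had 663 and 709 in KD and 1078 and 949.7 in WT cells, a difference of -0.56 ± 0.11 (adjusted p = 0.00595), lost without WT unstimulated replicate 1 (-0.47). Slc31a2 had 408 and 498 in KD and 831 and 585 in WT cells, a difference of -0.62 ± 0.14 (adjusted p = 0.0139), lost without KD unstimulated replicate 1 or WT unstimulated replicate 1 (-0.48 to -0.37). Neither pair of groups overlapped. The other probe set of Slc31a1 gave -0.05 (adjusted p = 0.891) and that of Slc31a2 0.031 (adjusted p = 0.956). Slc12a2, the sodium-potassium-chloride cotransporter, differed by -0.85 ± 0.18 (adjusted p = 0.0076), lost without WT unstimulated replicate 1 (-0.80), and Slc49a4 by -0.59 ± 0.14 (adjusted p = 0.02), lost without KD unstimulated replicate 1 or WT unstimulated replicate 1 (-0.46 to -0.44). Slc25a13, the aspartate-glutamate carrier, differed by 0.72 ± 0.14 (adjusted p = 0.00633), lost without WT unstimulated replicate 1 (0.64).

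Slc15a3 had 1485 and 1169 in KD and 800.5 and 941 in WT cells, a difference of 0.60 ± 0.12 (adjusted p = 0.00595), lost without KD unstimulated replicate 1 or WT unstimulated replicate 1 (0.43 to 0.48). Slc22a4, Slc35a5 and Slc66a1 completed the list at -0.80 ± 0.22 (adjusted p = 0.0374), -0.55 ± 0.12 (adjusted p = 0.013) and 0.95 ± 0.27 (adjusted p = 0.0482). Slc22a4 was lost without either KD unstimulated array or either WT unstimulated array (-0.81 to -0.78) and Slc35a5 without KD unstimulated replicate 2 or WT unstimulated replicate 1 (-0.49 to -0.45). Slc66a1 was lost without either KD unstimulated array, either KD LPS 4 h array, either WT unstimulated array or either WT LPS 4 h array (0.75 to 1.16). Since these differences share the unstimulated arrays with the LPS responses of each strain, no relation between them is drawn.

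Most carriers were not called after LPS, including several with strong signal on all arrays. Slc35a2, the UDP-galactose transporter of the Golgi, had signals of 3037 to 3704 on the KD arrays and 2908 to 4040.2 on the WT arrays. Slc39a1, a zinc importer of the plasma membrane, had 2578 to 3334 on the KD arrays and 2617 to 3394 on the WT arrays. Slc25a20, the carnitine-acylcarnitine carrier, had 2302 to 2827 on the KD arrays and 2239 to 3406 on the WT arrays, and Slc25a5, an adenine nucleotide exchanger, 2469 to 2836 on the KD arrays and 2406 to 2932 on the WT arrays. At 4 h Slc35a2 changed by -0.14 ± 0.10 (adjusted p = 0.497) in KD and -0.066 ± 0.10 (adjusted p = 0.75) in WT cells, and Slc39a1 by 0.21 ± 0.09 (adjusted p = 0.181) in KD and 0.17 ± 0.09 (adjusted p = 0.245) in WT cells. A missed threshold does not show that these genes were equal between the groups.

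Carriers outside the naming pattern were looked at as a list of 40 genes, such as the organic anion carriers of the Slco family, sideroflexins, mitochondrial pyruvate carrier subunits, heme and phosphate exporters and ancillary subunits. Of these, 36 were on the array and 29 tested: at 1 h 1 was higher and 2 lower in KD cells, where 5.47% of all probe sets were called, and 0 higher and 3 lower in WT cells, where 6.12% were. At 4 h 1 was higher and 5 lower in KD cells, where 10% of all probe sets were called, and 2 higher and 8 lower in WT cells, where 17.1% were. Slco3a1, an organic anion and prostaglandin carrier, had 303 and 267 at 4 h in KD cells, against 30.5 and 40.6 without LPS, and 869 and 748 in WT cells, against 121 and 72.2 without LPS. Its change was 2.86 ± 0.24 (adjusted p = 1.06e-07) in KD and 3.05 ± 0.24 (adjusted p = 2.17e-08) in WT cells. The heme exporter gene Flvcr1 fell by 0.66 ± 0.10 in KD cells (adjusted p = 0.000193) and by 1.22 ± 0.10 in WT cells (adjusted p = 4.50e-08) on the log2 scale at 4 h, and the phosphate exporter gene Xpr1 by 0.68 ± 0.12 in KD cells (adjusted p = 0.000696) and 0.72 ± 0.12 in WT cells (adjusted p = 0.000201).

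Of the 9 carriers set aside by name, the inducible arginine carrier Slc7a2 changed at 4 h by 1.93 in KD and 3.01 in WT cells, and the zinc and iron importer Slc39a14 by 1.13 in KD and 2.30 in WT cells. The cystine-glutamate exchanger Slc7a11 changed by 1.49 in KD and 1.76 in WT cells, and the iron exporter Slc40a1 by -0.80 in KD and -1.42 in WT cells.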

How the data were processed

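RNA from 12 cultures, amplified with the NuGEN Ovation system per the labels' protocols, was hybridised to Affymetrix arrays. The deposited intensity values are MAS5 signals of 45101 probe sets, per the submitters' processing notes, and the MAS5 version is not given in the sources used here. Signals were used as deposited, since all arrays had the same trimmed mean, and transformed as log2(signal + 4.4), the pseudocount 4.4 being the 20th percentile over the whole table. Without 64 control probe sets, those above the array median on 2 or more arrays were kept, which left 27931. Group means of the 6 groups were compared by a linear model (limma 3.58.1, R 4.3.3) with a trended variance prior, and p-values were adjusted by Benjamini-Hochberg over all probe sets kept. The number of arrays limits the precision.

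Gene symbols came from GEO's platform annotation: 34958 probe sets had 1 symbol, 932 had several and 9211 had none. All 201 genes were found in the RefSeq gene table, and 0 symbols changed. Of the 201, 123 were above the median on all 12 arrays and 78 on 2 to 11. The genes, transport classes and marker lists were chosen with earlier results of these data known. The rule for named genes took, per comparison, up to 10 called members with the highest and up to 10 with the lowest change among those whose replicates did not overlap, up to 3 called members per transport class, and the 8 members with the highest mean signal, and other called members were named after their values were seen. Alternatives were quantile normalization, 2 other filters, 2 other pseudocounts, a variance prior without a trend, a replicate block, fits of the compared arrays alone, another probe set per gene, and each array left out in turn. Sequences are from RefSeq, GRCm38.p6.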

Additional observations from a re-analysis of the deposited data

Results flagged for a closer look

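The difference between the LPS responses of KD and WT cells at 4 h, KD minus WT on the log2 scale, passed the limma test in 8 carriers. The response was lower in KD cells for Slc2a6 at -1.25, Slc15a3 at -0.821, Slc20a1 at -0.724 and Slc44a1 at -0.565. It was higher in KD cells for Slc25a24 at 0.525, Slc35a5 at 0.859, Slc5a3 at 1.26 and Slc2a8 at 3.07. The Slc2a8 value rests on signals that came down to 4.0 on 1 of the WT arrays at 4 h, below the pseudocount of 4.4.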

How the results depend on the processing

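With a variance prior without a trend, the called carriers numbered 6 at 1 h and 13 at 4 h in KD cells, 1 at 1 h in WT cells, 0 for the difference of the 4 h responses and 0 between unstimulated KD and WT cells. With only the compared arrays in the fit, they numbered 5 in KD cells at 1 h and 7 between the unstimulated strains, where fewer arrays estimate the spread. The cause of the other shifts was not tested. With each array left out in turn, the counts ranged from 5 to 13 at 1 h and 15 to 31 at 4 h in KD cells, from 5 to 14 at 1 h and 33 to 53 at 4 h in WT cells, from 1 to 7 for the difference at 4 h and from 2 to 12 between the unstimulated strains. The difference at 1 h had 0 calls in each such fit. A group left with 1 array is assumed to vary like the other groups.

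Deviations of same-numbered replicates correlated between -0.0682 and 0.0401, so the numbers were not taken as pairs. With the replicate number as a block, the counts were 12 and 31 in KD cells and 13 and 49 in WT cells at 1 h and 4 h, 0 and 6 for the differences at 1 h and 4 h, and 10 between the unstimulated strains. Taking a probe set without a suffix for possible cross-hybridisation turned the sign for Slc20a1 at 4 h in WT cells (-0.013) and in the difference of responses (0.62), for Slc25a39 at 1 h in KD cells (2.41) and for Slc7a4 at 4 h in KD cells (0.35). Over the 127 called results and their alternatives, 2117 values kept direction and call, 423 kept direction and lost the call, and these 4 turned sign. That probe-set alternative replaced the probe set in only 18 of the 127 results. Over every other tested probe set of the called genes, 29 of 121 had the opposite sign and 20 were called in the same direction. Groups of 2 arrays limit what can be called, and the pseudocount of 4.4 understates the change of probe sets with low signal.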

Other observations

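Carriers known to reside on lysosomes or endosomes were gathered across the transport classes after the values had been seen, so their counts are a description with no test. All 16 listed genes were among the 201. At 1 h 0 were called higher and 3 lower in KD cells (Slc15a4, Slc29a3 and Slc66a1), and in WT cells 2 were higher (Slc2a6 and Slc15a3) and 3 lower (Slc15a4, Slc26a11 and Slc49a4). At 4 h 4 were higher in KD cells, Slc2a6, Slc15a3, Slc31a2 and Slc49a4, and 2 were lower, Slc17a5 and Slc29a3. In WT cells at 4 h the same 4 genes were higher and 8 were lower, Slc2a8, Slc17a5, Slc26a11, Slc29a3, Slc36a1, Slc38a9, Slc46a3 and Slc48a1. Of all probe sets, 3.17% were called higher and 2.29% lower at 1 h in KD cells, and 2.89% higher and 3.23% lower in WT cells. At 4 h, 5.3% were called higher and 4.7% lower in KD cells, and 6.95% higher and 10.2% lower in WT cells. The median log2 change of the 16 at 4 h was -0.33 in KD cells and -0.54 in WT cells, beside -0.046 in KD and -0.12 in WT cells over all probe sets tested.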
